A study of Mus musculus with 40 samples.

Results

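Choroid and retina were compared in control mice whose mononuclear phagocytes (MP) had been depleted with PLX5622 (PLX). The libraries were chosen by the labels for tissue, genotype and treatment, which gave 10 of the 40 libraries in the series, 1 choroid and 1 retina from each of 5 mice (mice 11 to 15). The series compared control and *Tgfbr2*ΔEC mice, with and without PLX, 5 mice in each combination, and RNA of both tissues was sequenced from each of the 20 mice 3 days after 6 laser burns had been placed in each eye. All mice carried 2 floxed *Tgfbr2* alleles on a C57BL/6J background, were of both sexes and received tamoxifen eye drops at 6 to 7 weeks of age. Controls were littermates without Cre, so tamoxifen deleted no *Tgfbr2* in them, whereas *Tgfbr2*ΔEC mice carried a tamoxifen-inducible Cre under the endothelial *Cdh5* promoter. PLX5622 was given in the food from the first tamoxifen drops onwards, and mice without it received control food. Only the central part of the choroid, which held the laser lesions, had been used, while no such selection was described for the retina. Control – PLX mice (mice 1 to 5) and *Tgfbr2*ΔEC + PLX mice (mice 16 to 20) were used here only to show where the 10 libraries differed or did not.

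PLX5622 blocks the kinase of the CSF1 receptor, on whose signal microglia and most tissue macrophages depend for survival. Microglia are the resident MP of the neural retina. The choroid is a vascular, pigmented connective tissue outside the blood-retinal barrier. It holds resident and perivascular macrophages, mast cells and dendritic cells, and blood monocytes reach it freely. Monocytes and neutrophils come from bone marrow and enter injured tissue from the blood, and lymphocytes do not depend on the CSF1 receptor. Complement factors are made by many cells that are not leukocytes, among them fibroblasts and the retinal pigment epithelium (RPE).

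Values are the deposited normalized counts. Depth was about 21811916 to 25357677 reads in the 5 choroids and 21644944 to 26791103 in the 5 retinas. The floor was set at 3 reads per library, equal to 3.03 to 3.57 normalized counts for choroids and 2.64 to 3.27 for retinas, and it covers counting error alone. Differences are choroid minus retina on the log2(normalized count + 1) scale, which understates the change of low genes, and were tested with limma paired by mouse with Benjamini-Hochberg adjustment. An adjusted p at or under 0.05 was called. Of 24368 genes tested, 7344 (30.1%) were higher in choroid and 6714 (27.6%) were higher in retina, and the median difference of all genes was -0.02. The median difference moved to -0.13 when libraries were scaled to equal totals and to 0.07 when they were scaled by housekeeping genes. The balance of calls turned to 6958 higher in choroid against 7440 in retina with equal totals and to 6855 against 7664 with equal upper quartiles. Retinas were numbered 1 to 20 and choroids 21 to 40 in the library names, so that library order and tissue cannot be told apart. Genes with less than 1500 exonic bases lay at a median of 0.68 (log2) above the tissue median in the retina of mouse 11 and 0.35 in the choroid of mouse 12, and at -0.08 to 0 in the other 8 libraries.

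After PLX, most immune genes were higher in choroid than in retina. The 16 lists of immune genes held 176 genes found in the data, of which 172 could be tested. Of these, 154 (89.5%) were higher in choroid, 5 were higher in retina and 13 were not called, with a median difference of 4.55 (log2). The number higher in retina was 2 without mouse 14 and 3 without mouse 11, 13 or 15. The share called higher in choroid was 30.1% among all genes. Of the 176 genes, 62 lay above the floor in every retina and 158 in every choroid, and 47 of these (29.7%) were at or under the floor in every retina. Among all genes above the floor in every choroid, the same was true of 694 of 17187 (4.04%). These counts describe the state with PLX and not a change with it. The interaction of tissue and diet, given below, called 16 immune list genes greater with PLX and 2 smaller. Without PLX, the retinal mean reached 10 for 18 of 18 phagocyte core genes. It did so for 3 of 8 monocyte, 2 of 10 mast cell and 1 of 18 T and NK cell genes. In bulk tissue, fewer cells of a type and less RNA per cell cannot be told apart.

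**Figure D1:**
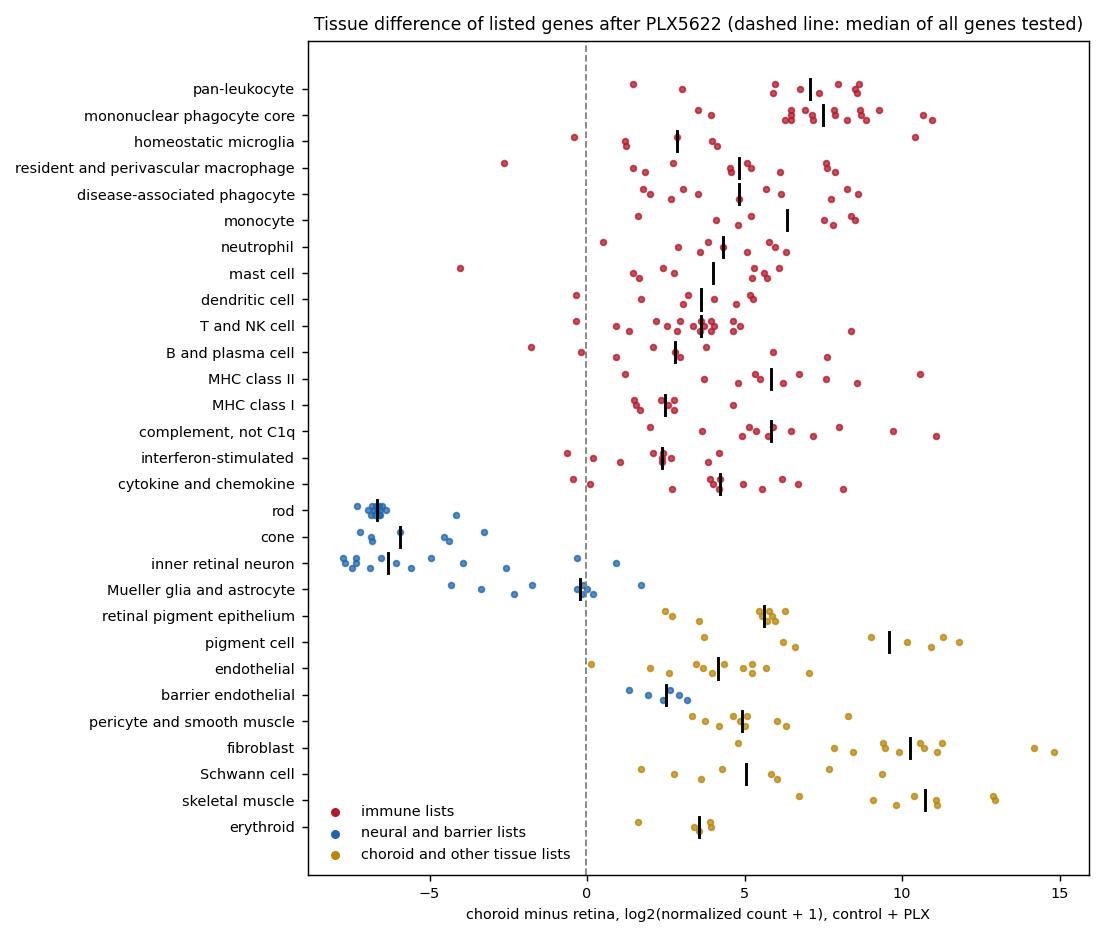
Tissue difference after PLX5622 (horizontal axis, choroid minus retina, log2 of normalized count + 1) for each tested gene of the cell type and pathway lists (vertical axis), in 5 paired mice. Each point is a gene, black bars are list medians and the dashed line is the median of all genes tested (-0.02). Immune lists lie to the right, from a median of 2.37 for interferon-stimulated genes to 7.50 for the mononuclear phagocyte core, and rod, cone and inner retinal genes lie to the left.

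The receptor targeted by the drug, the pan-leukocyte gene and the myeloid adaptor were all far above the retina in each mouse. *Csf1r*, the CSF1 receptor, measured 4235, 3177, 3887, 4986 and 4199 normalized counts in the choroids of mice 11 to 15. In the retinas of the same mice it measured 49.3, 61.2, 16.7, 29.6 and 120. The groups did not overlap, the lowest choroid was that of mouse 12 and the highest retina that of mouse 15, and the mean was 74.1-fold higher in choroid (log2 difference 6.46, SE 0.38, adjusted p = 5.2e-06). *Csf1r* was the only gene of these 3 that remained above the floor in all 5 retinas.

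*Ptprc* encodes CD45, the surface phosphatase of all leukocytes (chromosome 1, 137990599 to 138103446, GRCm39). It measured 698, 703, 866, 833 and 522 in choroid and 0.863, 6.06, 0, 0 and 0.863 in retina. Mouse 12 had the only retina above the floor, and the difference was 8.56 (SE 0.50, adjusted p = 4.8e-06). *Tyrobp*, the adaptor through which TREM2 and other myeloid receptors signal (chromosome 7, 30113170 to 30117010), measured 721, 1863, 1269, 776 and 559 in choroid. Its retinas were at 0, 1.06, 0, 1.19 and 0.782, about 1 read each where it was seen at all. The ratio of the means was 1711, with a 95% counting interval of 595 to 8439, and the difference was 9.28 (SE 0.40, adjusted p = 1.2e-06). For each of these 3 genes the exact two-sided sign-flip test over the 5 mice gave p = 0.0625, the smallest p that 5 pairs allow.

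Measured against control – PLX mice, choroid kept 31.7% to 48.7% of these RNAs and retina 0.481% to 9.6%. Choroid kept 48.7% of its mean *Csf1r* level without PLX (8411 ± 293, SD, n = 5), 31.7% of *Ptprc* (2284 ± 204) and 36.1% of *Tyrobp* (2876 ± 355). Retina kept 9.6% of *Csf1r* (576 ± 191), 1.3% of *Ptprc* (120 ± 78.8) and 0.481% of *Tyrobp* (126 ± 36.3). The share of *Ptprc* in retina was 0.361% without mouse 12, the retina in which most of it was measured. All 6 falls were past the threshold in limma (adjusted p between 2.5e-06 and 0.0058), beside 2.29% of all genes called lower with PLX in choroid and 0.653% in retina. In each of the 6 comparisons the 5 mice with PLX lay below the 5 without, which is the smallest exact two-sided permutation p that 5 against 5 allows (p = 0.00794). The 3 genes were higher in choroid without PLX as well, by 3.92, 4.50 and 4.53 (log2).

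**Figure D2:**
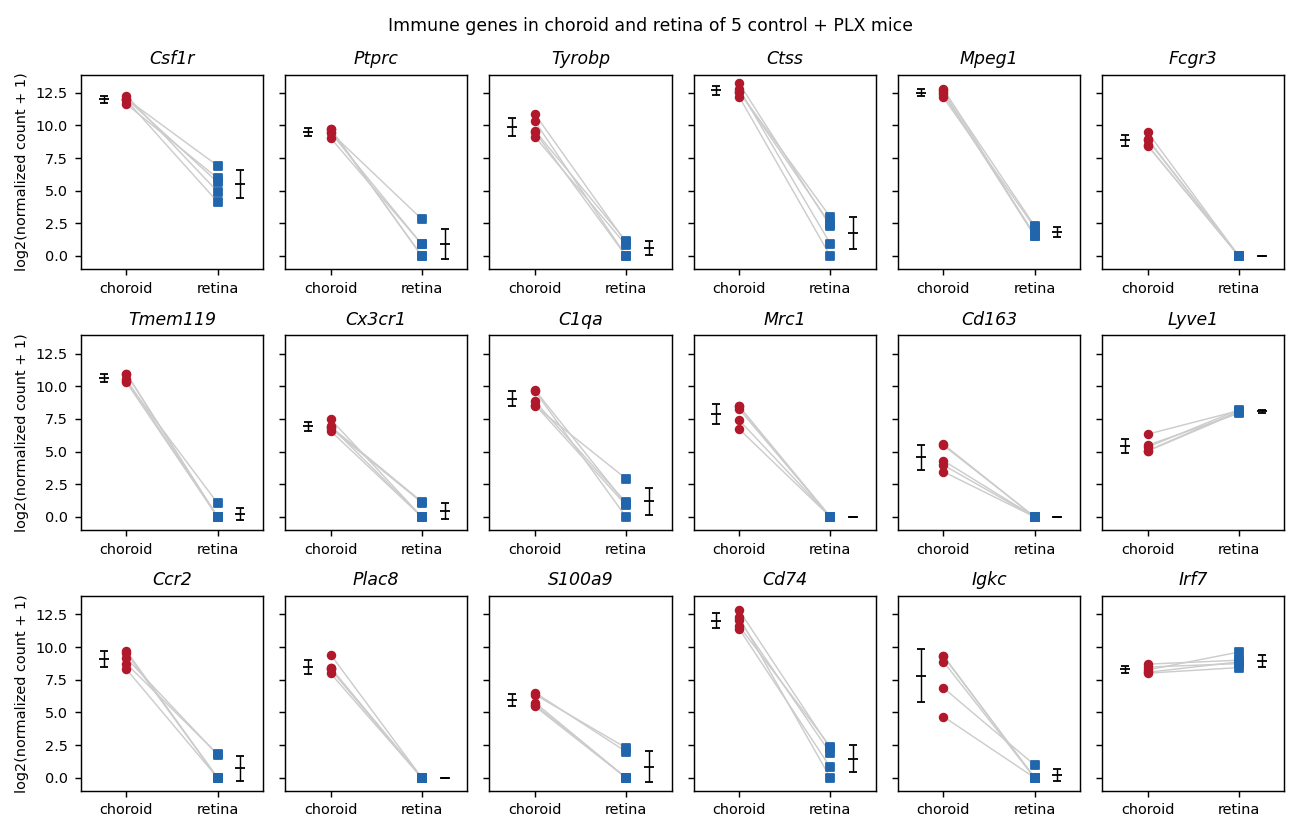
Level of 18 immune genes (vertical axis, log2 of normalized count + 1) in the choroid (red circles) and retina (blue squares) of the 5 control + PLX mice, with grey lines joining the tissues of a mouse and bars showing the mean and SD of each group. Choroids lie above retinas in every mouse for all genes shown except *Lyve1*, where every retina is higher, and *Irf7*, where the groups overlap.

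The mononuclear phagocyte core, 18 genes that microglia, macrophages and monocytes share, had the largest median difference of the immune lists. All 18 genes were higher in choroid (median 7.50, or 7.27 from the ratio of means with genes at 0 in retina set to their bound), and all 18 were above the floor in every choroid. Their summed level was 22436, 31253, 28399, 23597 and 18901 in the choroids of mice 11 to 15. In the retinas it was 167, 135, 51.6, 72.9 and 174. *Csf1r*, *Cd68*, the lysosomal glycoprotein macrosialin, and *Cd14*, the co-receptor for lipopolysaccharide, were the only core genes above the floor in all 5 retinas.

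The 2 core genes with the largest tissue difference were *Ctss* and *Mpeg1*. *Ctss*, the lysosomal protease cathepsin S that processes the invariant chain of MHC class II (chromosome 3, 95433963 to 95463717, GRCm39), measured 6139, 9517, 7048, 6173 and 4667 in choroid. It measured 6.89, 3.9, 0.927, 4.41 and 0 in retina (difference 10.94, adjusted p = 6.8e-07). *Mpeg1*, the pore-forming perforin-2 of macrophages (chromosome 19, 12438114 to 12442649), measured 5915, 6656, 7133, 5392 and 4513 in choroid. Its retinas lay between 1.89 and 3.96 (difference 10.67, adjusted p = 2.2e-07). For both genes the choroid of mouse 15 was the lowest of 5, and no retina came near it. *Fcgr3*, the low-affinity IgG receptor FcγRIII, was at 0 in all 5 retinas and at 351, 710, 494, 472 and 353 in choroid, at least 163-fold higher against the mean retinal floor of 3 reads per library. The core gene with the smallest difference was *Aif1*, which encodes the microglia and macrophage marker IBA1. It measured 43.4 to 104 in choroid and 0 to 14.3 in retina (3.51, adjusted p = 0.0035), with no overlap.

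The promoters of *Ctss* and *Mpeg1* are shown because these genes set the tissues furthest apart within the core and both kept over 40% of their level in choroid and under 1% in retina. GAGGAA, searched on both strands, is the core of the site bound by PU.1, the myeloid transcription factor encoded by *Spi1*. Within the 250 bases before the start, RefSeq sequence of the build GRCm38.p6 held it once for *Ctss*, 163 bases before the start, and not for *Mpeg1*. The letters occur in 7639 of 32851 promoters of the same length (23.3%). Counted by symbol, they occur for 25.9% of 27025 symbols and for 8 of the 13 core genes with an entry. A match is a description of the sequence and not a site of binding. Capitals mark the match on the strand of the gene.
Ctss, chr3:95526536-95526785, plus strand: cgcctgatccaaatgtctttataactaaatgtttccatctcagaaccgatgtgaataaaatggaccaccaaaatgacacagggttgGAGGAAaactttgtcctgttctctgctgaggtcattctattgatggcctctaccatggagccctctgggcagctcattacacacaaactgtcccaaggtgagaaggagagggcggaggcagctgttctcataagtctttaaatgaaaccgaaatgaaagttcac
Mpeg1, chr19:12460520-12460769, plus strand: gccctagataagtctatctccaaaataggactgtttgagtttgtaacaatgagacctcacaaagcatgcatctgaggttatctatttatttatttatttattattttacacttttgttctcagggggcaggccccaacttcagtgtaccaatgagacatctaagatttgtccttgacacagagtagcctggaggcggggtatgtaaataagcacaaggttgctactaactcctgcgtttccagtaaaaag

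The members of the core did not keep equal parts of their level. In choroid the core kept a median of 26.9% of its level without PLX, from 8.27% for *Cx3cr1* to 48.7% for *Csf1r*, and all 18 genes were called lower with PLX. In retina the median was 0.792%, from 0% for *Fcgr3* (at most 4.04% at the floor) to 26.2% for *Cd14* (16.8% without mouse 11), and 15 of 18 were called lower. *Cx3cr1*, the fractalkine receptor of microglia and resident macrophages, fell in choroid from 1502 ± 142 to 110, 121, 177, 120 and 94.4. The genes of the C1q chains, *C1qa*, *C1qb* and *C1qc*, which resident macrophages make in quantity, kept 10.5%, 17.7% and 14.0% in choroid. Retina kept 0.497%, 0.425% and 0.239% of them. The retina of mouse 11, one of the libraries with the skew by exonic length, was the highest for all 3, and without it the shares were 0.194%, 0.281% and 0.062%. Over all genes with a mean of at least 10 without PLX, the median share kept was 101% in both tissues.

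**Figure D3:**
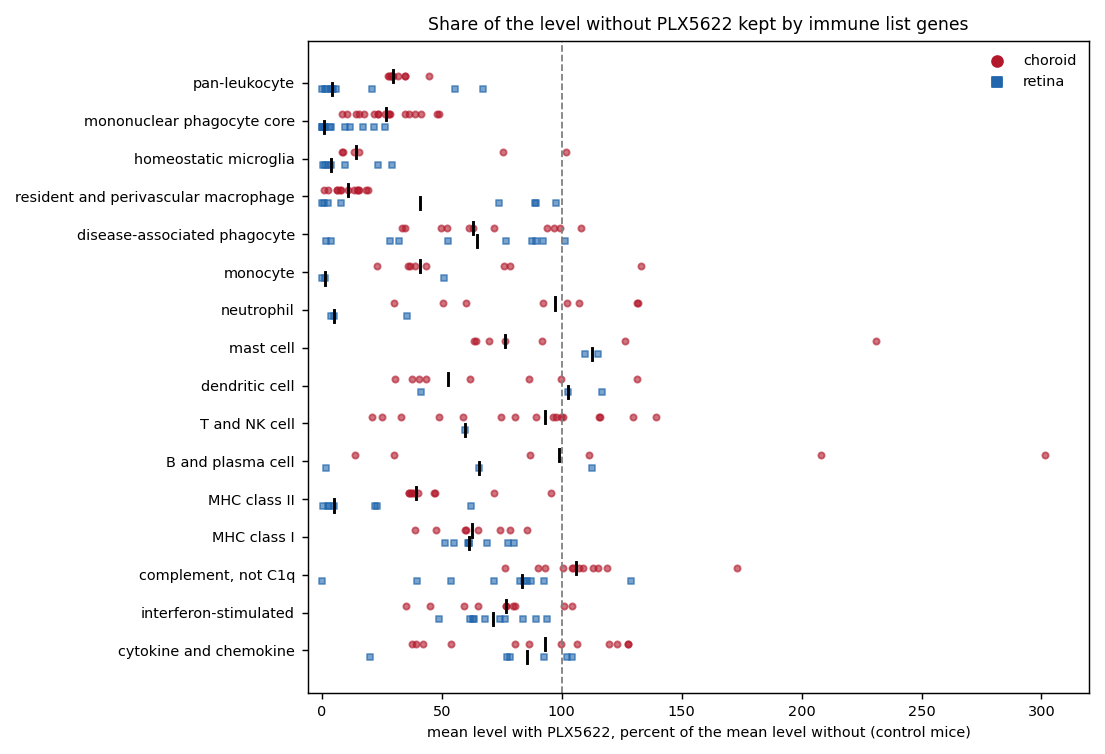
Mean level with PLX5622 as a percentage of the mean level without it in control mice (horizontal axis) for immune list genes with a mean of at least 10 normalized counts without PLX5622, in choroid (red circles) and retina (blue squares), 5 mice in each group. Black bars are medians and the dashed line marks an unchanged mean. Phagocyte core genes lie at a median of 26.9% in choroid and 0.792% in retina, while choroidal mast cell, T and NK cell, B and plasma cell, neutrophil and complement genes have medians between 76.3% and 106%.

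The pan-leukocyte list, genes shared by all white blood cells, was higher in choroid for 10 of 10 genes (median 7.07). Its summed level was 4997 to 9342 in choroid and 137 to 364 in retina. The smallest difference was that of *Coro1a*, which encodes the actin-binding protein coronin 1A, with 222 to 773 in choroid and 111 to 257 in retina, where the groups overlapped (1.45, adjusted p = 0.011). The largest was that of *Laptm5*, a lysosomal membrane protein of blood cells, with 1361 to 2483 in choroid and 0.972 to 14 in retina (8.62, adjusted p = 2.4e-06). *Rac2*, a GTPase of blood cells, was at 0 in all retinas and ranged in choroid from 598 in mouse 11 to 177 in mouse 14 and 40.4 in mouse 15. In choroid 9 of 10 genes were called lower with PLX and kept a median of 29.5%. In retina 7 of 10 were called lower and the median kept was 4.37%.

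Genes used to tell microglia from other macrophages gave a mixed list, with 5 of 7 higher in choroid, 0 higher in retina and 2 not called (median 2.84). *P2ry12*, a purinergic receptor of homeostatic microglia, was the called gene with the smallest difference and remained above the floor in all 5 retinas. It measured 25.7, 23.8, 31.9, 58 and 35.2 in choroid and 13, 17.4, 9.03, 20.1 and 10.6 in retina (1.24, adjusted p = 0.019), with every choroid above every retina. Its adjusted p was 0.065, 0.068 and 0.058 without mouse 13, 14 or 15. Choroid kept 13.4% of it and retina 9.53%. *P2ry13*, *Gpr34* and *Siglech* kept 8.48% to 15.3% in choroid and 1.2% to 3.6% in retina. In retina each of the 3 was measured in 1 or 2 mice, and without the highest retina the shares were 0% to 0.507%. The list's other members not called were *Slc2a5* (-0.40, adjusted p = 0.57), a fructose carrier, and *Sall1* (1.22, adjusted p = 0.15), a transcription factor of microglia, for which leaving out mouse 12 gave 0.048.

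*Sall1* kept 75.7% of its level in choroid (49.7% without mouse 15), and *Tmem119* was the best kept of the list there. *Tmem119* encodes a transmembrane protein that marks microglia in the central nervous system and is also known from bone-forming cells. It measured 2002, 1991, 1266, 1324 and 1473 in choroid and 0, 0, 0, 1.07 and 0 in retina. The ratio of means was 7505 (95% counting interval 1327 to 291944) and the log2 difference 10.42 (SE 0.35, adjusted p = 5.1e-07). The choroidal level was 102% of that without PLX (1586 ± 228, limma adjusted p = 0.99), whereas the retinal level was 0.317% of that without PLX (67.7 ± 11, adjusted p = 3.3e-06), all of it from the retina of mouse 14. Choroids ranged from 1266 to 2002 with PLX and from 1352 to 1882 without it.

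Resident and perivascular macrophage genes were called higher in choroid for 11 of 12 genes tested (median 4.82), but kept the smallest part of their level there of all immune lists, a median of 11% with a range of 0.911% to 19.2%. In retina the 8 genes with a level to compare kept more, a median of 40.7% with a range of 0% to 97.8%, and the median was 26.7% without mouse 11 and 20.1% without mouse 13. All 13 listed genes were called lower with PLX in choroid, against 2 of 11 in retina. *Mrc1*, the mannose receptor CD206, measured 168, 353, 303, 350 and 105 in choroid, 6.3% of its level without PLX, and 0 in all retinas (at least 87.4-fold higher). *Cd163*, the haemoglobin scavenger receptor, measured 10, 14.6, 43.4, 46.2 and 18.7 in choroid, 2.64% of its former level, and was also at 0 in retina (at least 9.08-fold). *Cd209f*, a C-type lectin whose family of similar genes can share reads, fell in choroid from a mean of 175 to 1.59, the lowest share of the list (0.475% without mouse 12), and was at 0 in retina with and without PLX. *Folr2*, the folate receptor of resident macrophages, was higher in choroid (1.85, adjusted p = 0.030), but its groups overlapped and its adjusted p was 0.063, 0.10 and 0.090 without mouse 12, 14 or 15. The call of *Mgl2*, a lectin of macrophages and dendritic cells, was also lost without mouse 12, 13 or 14 (0.058 to 0.070).

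*Lyve1*, the hyaluronan receptor of lymphatic vessels and of a class of perivascular macrophages, was the exception of that list. It measured 31.7, 39.5, 43.7, 32.6 and 79.5 in choroid and 257, 293, 243, 271 and 279 in retina, so that every retina was above every choroid (-2.62, SE 0.26, adjusted p = 7.1e-05). Without PLX the tissues had been level, at 300 ± 104 and 301 ± 42.7. Choroid kept 15.1% of it and retina 89.4%, the latter not called (adjusted p = 1.0).

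Genes of disease-associated phagocytes, a state described in microglia and macrophages near damage, were higher in choroid for 11 of 11 (median 4.82) and kept a median of 63.0% there and 64.5% in retina, where the range was 1.89% to 101%. In choroid 4 of the 11 genes were called lower with PLX, and in retina 3. *Gpnmb*, which is also a gene of pigment cells, measured 31643 to 62880 in choroid and 95.6 to 310 in retina (7.74, adjusted p = 9.8e-07) and was kept at 99.2%. *Spp1*, which encodes osteopontin, measured 14476 to 22602 in choroid and 231 to 483 in retina and was kept at 33.5% and 28.2%. *Clec7a*, the β-glucan receptor dectin-1, was kept at 61.4% in choroid and 1.89% in retina (0.776% without mouse 14). *Apoe*, which glia also make, measured 48463 to 76223 in choroid and 6436 to 15819 in retina. Its highest retina was that of mouse 11, whose summed level for this list was 20861 beside 10727 to 12770 in the others.

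Monocyte genes were higher in choroid for 8 of 8 (median 6.35, or 5.54 with bounds), and 4 of them were at or under the floor in all retinas. The call of *Treml4*, the lowest of the 8 (1.61, adjusted p = 0.034), was lost without mouse 11, 12, 13 or 14 (0.071 to 0.11). Choroid kept a median of 41.0% of the list, with a range of 23.1% to 133%. The highest share, that of *Hp*, was 80.0% without mouse 12. *Ccr2*, the chemokine receptor of classical monocytes, measured 425, 571, 835, 749 and 316 in choroid and 2.52, 2.38, 0, 0 and 0 in retina (8.38, adjusted p = 5.3e-06). Choroid kept 23.1% of it. *Plac8* measured 252 to 689 in choroid, kept at 75.9%, and 0 in all retinas (at least 132-fold higher). *Chil3*, the chitinase-like protein Ym1, measured 121 to 486, kept at 78.4%, with 1 read in 1 retina. In choroid *Ccr2*, *Spn* and *Itgal* were called lower with PLX, and the other 5 were not.

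Of 9 neutrophil genes tested, 8 were higher in choroid (median 4.31). A median of 97.0% was kept there over 8 genes, with a range of 30.02% to 132%. The lowest share, that of *Ltf*, was 89.7% when mouse 4 without PLX was left out. *Csf3r*, the G-CSF receptor, was called lower with PLX (60.3% kept, adjusted p = 0.045). *Camp*, the antimicrobial cathelicidin, measured 87.5, 84.1, 91.6, 65.2 and 70 in choroid and 0 in retina with and without PLX. *S100a9*, an alarmin of neutrophils and monocytes, measured 43.3 to 90.9 in choroid and 0 to 3.89 in retina (5.08, adjusted p = 2.9e-05). The defining genes *Ly6g* and *Mpo* were at 0 in all 10 libraries, *Elane* did not pass 1.05, and *Ngp* was not called (0.49, adjusted p = 0.38).

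Of 10 mast cell genes, 7 were higher in choroid, 1 was higher in retina and 2 were not called (median 3.99, or 3.46 with bounds), and none was called lower with PLX in choroid. The chymase gene *Cma1* measured 2.02, 63.5, 147, 117 and 86.6 in choroid and 0 in all retinas. *Cpa3*, the mast cell carboxypeptidase, showed the same order of mice at its ends, with 3.03 in mouse 11 and 134 in mouse 13, and was at 0 in all retinas. The tryptase genes *Tpsb2* and *Tpsab1*, near copies whose reads may be split, measured 7.15 to 232 and 4.63 to 279 in the choroids. The choroid of mouse 11 was thus low for *Cma1* and *Cpa3*, and it was also the lowest for skeletal muscle genes, with a summed level of 23364 beside 87548 to 176531. *Fcer1a* (adjusted p = 0.054) and *Mrgprb2* (adjusted p = 0.059) were at 0 in the retinas and passed the threshold without mouse 11 or 12 (0.034 to 0.041), without the pairing by mouse (0.046 and 0.045) and with no filter on low values (0.049 and 0.047). *Hdc*, the histamine-forming enzyme, was higher in retina (208 to 933 against 9.27 to 142, -4.04, adjusted p = 0.00041) and its highest choroid was that of mouse 15.

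Of 8 dendritic cell genes, 7 were higher in choroid (median 3.61). A median of 52.6% was kept there, and 102% in retina over 3 genes. *Clec9a* and *Xcr1*, receptors of the cross-presenting class, measured 9.05 to 106 and 34.9 to 77.2 in choroid, with *Clec9a* at 0 in all retinas and *Xcr1* between 1.77 and 3.56. They were kept at 99.6% and 86.4%, the former at 60.1% without mouse 11. *Cd209a*, a lectin of monocyte-derived and dermal-type dendritic cells, fell to 30.5% (adjusted p = 0.033). *Irf8*, a transcription factor of dendritic cells and MP, measured 291 to 594 in choroid and 27 to 64.7 in retina and kept 43.5% and 41.1%. *Flt3*, the growth factor receptor of dendritic cell precursors, was not called (-0.35, adjusted p = 0.30).

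T and NK cell genes were low but mostly choroidal, with 16 of 18 higher there (median 3.61, or 2.32 with bounds) and 12 of 18 at or under the floor in every retina. *Il7r*, the interleukin-7 receptor of T cells and innate lymphoid cells, measured 363, 427, 559, 283 and 303 in choroid and 0, 0, 0, 0.766 and 0 in retina (8.39, adjusted p = 1.7e-06). *Trbc2*, a constant segment of the T cell receptor, measured 20.3 to 32.3 in choroid, 97.7% of its level without PLX, and 1 read in 1 retina. *Cd3e*, *Cd3g*, *Gzma*, *Gzmb* and *Nkg7*, genes of the T cell receptor complex and of cytotoxic granules, were at 0 in all retinas and had choroidal ranges that began at 2.65 and ended at 46. *Cd4*, which monocytes and macrophages also carry at low level, was the only one of the 18 called lower with PLX in choroid (25.2% kept, adjusted p = 0.00025). *Cd8a* (0.92, adjusted p = 0.12) and *Foxp3* (-0.36, adjusted p = 0.57) were not called, and the calls of *Lck* and *Cd28* were lost without some mice, *Cd28* having 47.8 in the retina of mouse 14 and at most 1.64 in the others.

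B and plasma cell genes included the immunoglobulin chains. *Igkc*, the constant region of the κ light chain, measured 117, 624, 654, 24.6 and 472 in choroid and 1 read in all retinas together (7.62, adjusted p = 7.4e-05). *Ighm*, the constant region of IgM, measured 60.4 to 134 in choroid, 13.9% of its level without PLX (adjusted p = 2.6e-05), and 0 to 1.57 in retina, 1.68% of its level there. In total 5 of 9 were higher in choroid, 1 in retina and 3, *Ms4a1* and *Pax5* among them, were not called. The call of *Cd79a*, a chain of the B cell receptor (2.80, adjusted p = 0.018), was lost without mouse 11, 12 or 15 (0.055 to 0.058). *Jchain*, the joining chain of IgA and IgM, was higher in retina at the threshold, with overlap. It measured 269 to 458 in retina and 15.6 to 449 in choroid (-1.77, adjusted p = 0.049). It was no longer called in 8 of 14 alternatives, by which the adjusted p reached 0.15.

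Antigen presentation differed between its 2 classes. MHC class II genes, which present peptides to CD4 T cells and mark professional presenting cells, were higher in choroid for 10 of 10 (median 5.85), with a median of 39.3% kept in choroid and 6 of 10 called lower with PLX there. *Cd74*, the invariant chain, measured 3130, 7206, 4307, 4973 and 2704 in choroid and 4.21, 3.76, 2.67, 0 and 0.739 in retina (10.58, adjusted p = 8.6e-07). *H2-DMa*, a peptide exchange factor, had the smallest difference (1.19, adjusted p = 0.0023), with 60 to 81.1 in retina. MHC class I genes, carried by nearly all cells, were higher in choroid for 8 of 8 with a smaller median of 2.46, and all 8 were above the floor in every retina. The call of *Nlrc5*, the activator of class I genes, was lost without mouse 12 or 14 (0.054 and 0.064). The list kept a median of 62.5% in choroid and 61.2% in retina. *B2m*, the class I light chain, measured 13681 to 22652 in choroid and 426 to 985 in retina (4.62), kept at 78.5% and 55.2%. Reads of the similar *H2* genes can be split between them.

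Complement genes other than C1q formed the immune list best kept in choroid, with a median of 106% and 0 of 12 called lower with PLX in limma. All 12 were higher in choroid (median 5.83). *Cfb*, factor B of the alternative pathway, measured 1795, 4405, 1777, 2218 and 1533 in choroid and 0 in every retina, at least 801-fold higher. *Cfd*, factor D or adipsin, a gene of fat cells, measured 309, 2734, 246, 1592 and 1270 in choroid and 0 in retina (at least 420-fold). *Serping1*, the C1 inhibitor, was expressed in both tissues, at 13842 to 22549 in choroid and 183 to 481 in retina. *C4b*, which astrocytes and Müller glia can induce, differed least but for *Cfi* (3.66 against 2.01) and had its highest retina in mouse 11, at 1537 beside 220 to 508. The retina of mouse 11 was the highest of 5 for the summed list as well, 2955 beside 1015 to 1468.

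Interferon-stimulated genes were the immune list with the smallest median difference (2.37), with 8 of 10 higher in choroid and all 10 above the floor in every retina. *Bst2*, the antiviral tetherin, measured 1234 to 1863 in choroid and 55.7 to 150 in retina (3.84). *Irf7*, the transcription factor that amplifies type I interferon, measured 256 to 414 in choroid and 344 to 786 in retina, with overlap (-0.63, adjusted p = 0.030). Choroid kept 35.1% of it and retina 93.8%, and without mouse 11, 14 or 15 its adjusted p was 0.057, 0.098 and 0.053. In *Tgfbr2*ΔEC + PLX mice *Irf7* was higher in choroid (0.71, adjusted p = 0.0045).

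Of 12 cytokine and chemokine genes, 10 were higher in choroid (median 4.21). Both ligands of the CSF1 receptor were among them. *Csf1* measured 2343 to 3346 in choroid and 128 to 175 in retina (4.19), and *Il34* measured 657 to 927 and 82.7 to 138 (2.70). Neither was called changed with PLX in either tissue, with 99.6% and 123% kept in choroid. The monocyte attractants *Ccl2* and *Ccl7* measured 109 to 282 and 36.2 to 126 in choroid, fell to 42.1% and 37.6% there, and were at 0 in 3 and in 5 of the retinas. *Ccl11*, the eosinophil attractant eotaxin, measured 299 to 909 in choroid and 0 to 4.86 in retina and was kept at 86.3%. *Cx3cl1*, the neuronal ligand of CX3CR1, was higher in retina (1863 to 2960 against 1541 to 1873, -0.45, adjusted p = 0.029), with overlap, and was not called without mouse 13, 14 or 15 (0.081 to 0.11) or when libraries were scaled by housekeeping genes (0.075). *Il33*, an alarmin of Müller glia and stromal cells, was not called (0.11, adjusted p = 0.57).

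Whether the tissue difference itself depended on PLX was tested as an interaction of tissue and diet over the 20 control libraries. Of 24333 genes, the signed difference, choroid minus retina, was greater with PLX for 27 (0.111%) and smaller for 13 (0.0534%), while 1203 had an unadjusted p under 0.05. A smaller signed value can be a larger excess in retina, as for *Lyve1*, which went from -0.09 to -2.62. All 27 were called higher in choroid without PLX too, and the mean of 24 was lower with PLX in both tissues. Choroid kept a median of 33.2% of them and retina 0.63%, and 10 had all 5 retinas at or under the floor with PLX. Of the 27 genes, 16 belonged to the immune lists and 10 of these to the phagocyte core. Where retinas lie near 0 the size of this value depends on the added 1.

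The 8 genes of lowest p among the 27 were *Tmem119*, *Mpeg1*, *Ctss*, *Tyrobp*, *Myo1f*, *Fcgr3*, *Cx3cr1* and *Selplg*. The *Tmem119* difference was 4.53 without PLX and 10.42 with it, a change of 5.88 (SE 0.34, adjusted p = 1.1e-05). For *Ctss* it moved from 4.33 to 10.94, a change of 6.61 (SE 0.43, adjusted p = 2.2e-05). *Myo1f*, an unconventional myosin of leukocytes, and *Selplg*, the P-selectin ligand, were not in the lists fixed for phagocytes and kept 33.2% and 32.2% in choroid and 0.454% and 1.5% in retina, the share of *Myo1f* there resting on the retina of mouse 12 alone. *Csf1r* itself was not called, with a change of 2.54 from 3.92 to 6.46 (adjusted p = 0.060).

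The 8 genes of lowest p in the other direction were *Cd209f*, *Cd209g*, *Vsig4*, *Ccl24*, *Cd83*, *Cdnf*, *Cyrib* and *Lyve1*. All 13 had a lower mean with PLX in choroid, with a median of 19.3% kept, and 4 had all retinas at or under the floor. *Vsig4*, the complement receptor CRIg of resident macrophages, fell in choroid from a mean of 45.7 to 0.793, which is 1.73% of it (1.03% without mouse 14), and the lectin *Cd209g* from 69.4 to 0, with both at 0 in all retinas. *Ccl24*, the eosinophil attractant eotaxin-2, fell from 46.8 to 2.36, which is 5.04% of it (2.71% without mouse 13). *Cd83*, a marker of activated dendritic cells that some neurons also express, fell to 27.7% in choroid and stood at 96.0% in retina, so that its tissue difference moved from 1.33 to -0.46. *Lyve1* was described above. The number of such genes was 3 to 7 when mouse 1, 2, 3, 4 or 5 without PLX was left out, 4 without mouse 14, and 9 to 15 without mouse 11, 12, 13 or 15.

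**Figure D4:**
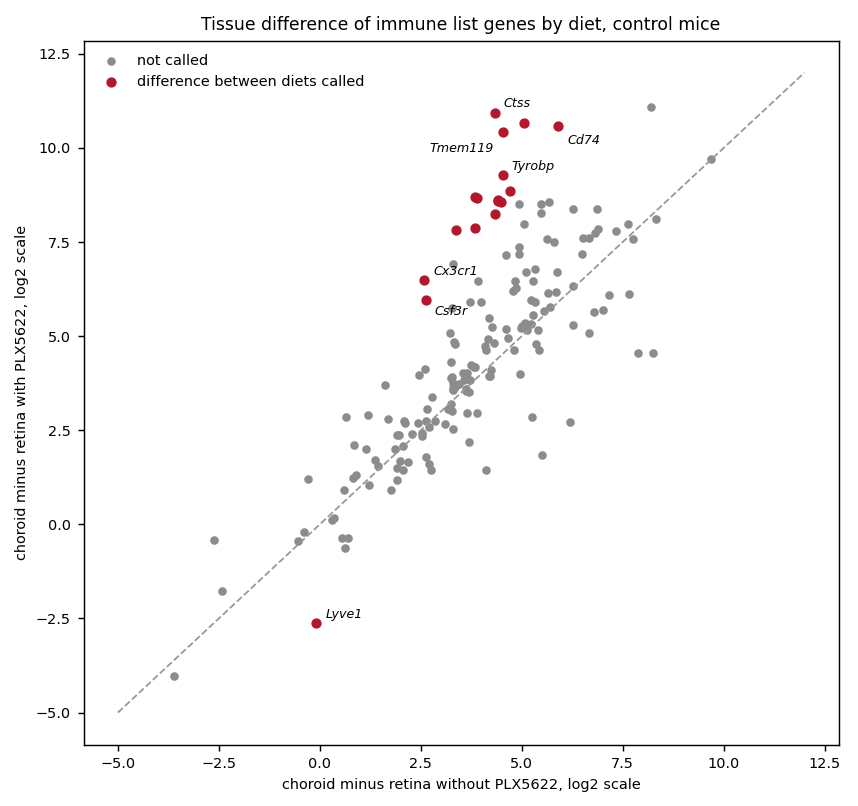
Tissue difference of immune list genes (choroid minus retina, log2 of normalized count + 1) without PLX5622 on the horizontal axis and with PLX5622 on the vertical axis, 5 control mice per diet. Each point is a gene, the dashed line marks equal differences and red points were called in the interaction of tissue and diet (limma, adjusted p at or under 0.05). *Ctss* and *Tmem119* lie far above the line, at 10.94 and 10.42 with PLX5622, and *Lyve1* lies below it, at -2.62.

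A list of PLX-sensitive genes that used none of the control mice was taken from the *Tgfbr2*ΔEC mice, in which 100 genes (0.433%) were called lower with PLX in retina. In the control + PLX mice, 96 of these 100 were higher in choroid and 0 were higher in retina (median 6.57), beside 30.1% and 27.6% of all genes. Choroid kept a median of 30.02% of them, with an interquartile range of 22.8% to 41.4%. Retina kept 3.59% (0.731% to 9.72%). These genes were chosen for a fall in retina with PLX, so that a low level and a low share there are built into the list. The tissue calls, the shares and the counts above the floor are a description. At least 10% was kept by 96 of 100 genes in choroid and by 24 of 96 in retina, and 36 genes were above the floor in every choroid and in no retina. Of all 17187 genes above the floor in every choroid, 694 were above it in no retina. Those of the highest choroidal mean included *Lyz2*, *Ctss*, *Mpeg1* and *Csf1r*. *Lyz2*, lysozyme, measured 18233, 38174, 28981, 20370 and 13634 in choroid and 7.75 to 13.6 in retina (10.94, adjusted p = 2.2e-07), and was kept at 44.3% and 1.98%.

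The corresponding list from *Tgfbr2*ΔEC choroid was far longer, with 1205 genes (5.09%), and was not of one kind. Of 1194 tested in control + PLX mice, 504 (42.2%) were higher in choroid and 601 (50.3%) higher in retina, with a median difference of -0.71. Control choroid kept a median of 68.5% of this list (interquartile range 36.1% to 147%) and retina 99.1% (67.6% to 108%), in which the lower share in choroid is likewise built into the list by the choice of genes that fell there. The choroids without PLX of that genotype held neural RNA at 3.02% to 9.74% of their own retinas, against 0.465% to 1.46% with PLX, and the part of neural RNA in this list was not tested. Its 5 genes of highest choroidal mean were *Psap*, *Apoe*, *Ftl1*, *Ctsb* and *Actb*, genes of lysosomes, lipid transport, iron storage and the cytoskeleton that many cells express, and control choroid kept 59.8% to 82.6% of them.

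The tissue contrast was also made without PLX and in the other PLX-fed mice, neither of which shared a library with it. Without PLX, 8113 of 24224 genes (33.5%) were higher in choroid. In *Tgfbr2*ΔEC + PLX mice 8511 of 24167 (35.2%) were. Of the calls higher in choroid in control + PLX mice, 6922 were called so in *Tgfbr2*ΔEC + PLX mice as well, which is 94.3% of the former list and 81.3% of the latter, and over both directions 2 genes were called the opposite way. All 18 phagocyte core genes and all 10 pan-leukocyte genes were higher in choroid there, with differences of 5.86 for *Csf1r*, 8.24 for *Ptprc* and 9.28 for *Tyrobp*.

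The contrast beyond the immune lists was that of neural tissue against a vascular and fibrous coat. Of the 10 protein-coding genes with the largest difference in favour of choroid, *Dcn* and *Lum*, the collagen-binding proteoglycans decorin and lumican, came first (14.82 and 14.19). *Myh4* and *Myh1*, fast myosins of skeletal muscle, were among them (12.94 and 12.88), as were *Angptl7*, *Mmp3*, *Prg4*, *Itgbl1*, *Bpifb1* and *Chad*. Fibroblast genes (12 of 12, median 10.24), skeletal muscle genes (8 of 8, 10.71) and pigment cell genes (8 of 8, 9.58) had larger medians than any immune list. Endothelial genes were higher in choroid for 11 of 12 (4.17), with *Kdr*, the VEGF receptor 2, not called (0.12, adjusted p = 0.64), and the 6 genes of barrier endothelium, such as *Slco1c1* and *Mfsd2a*, were higher in choroid too (2.52). RPE genes were higher in choroid for 10 of 10 (5.63), and the RPE signal left in the retinas was a median of 0.832% to 3.57% of the choroid of the same mouse. The retina of mouse 12 held Schwann cell and myelin genes at a summed level of 4974, beside 1064 to 1161 in the others.

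In retina, rod genes (15 of 15 higher, median -6.66), cone genes (7 of 7, -5.92) and inner retinal neuron genes (12 of 14, -6.31) led. Exceptions were *Trpm1*, which pigment cells also express and which was higher in choroid, and *Slc6a9*, the glycine transporter, which was not called. Müller glia and astrocyte genes were divided, with 1 of 10 higher in choroid (*Rlbp1*, which RPE shares, 1.70), 4 higher in retina and 5 not called. The 10 protein-coding genes of largest difference, between -8.50 and -7.69, included *Gm50461*, *Cplx3*, *Chrna6*, *Gpr26*, *Gjd2*, *Lhx4*, *Gabrr3*, *Gad1* and *Pcp2*. *Cplx3*, a complexin of ribbon synapses, measured 9261 to 11850 in retina and 3.02, 21.3, 34.1, 12.7 and 709 in choroid. For all 10 genes the highest choroid was that of mouse 15, and their standard errors (0.77 to 1.44) were above those of the leading choroidal genes (0.28 to 0.59).

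The choroid of mouse 15 held about 10% of the neural RNA of its retina. Over 36 rod, cone and inner retinal genes, the median level in choroid as a percentage of the retina of the same mouse was 0.193, 1.07, 0.49, 1.14 and 10.2 for mice 11 to 15. Rod, cone and inner retinal genes gave 9.67%, 11% and 10.9% in mouse 15, and it was the highest of 5 for 32 of the 36. The 4 exceptions were *Trpm1*, *Slc6a9*, *Gngt2* and *Sncg*, which stood at 4.89% of retina or more in each of the other choroids as well. Among the other 19 choroids of the series the median was 1.43% and the range 0.193% to 9.74%, so that 0 were above it, and those of mice 6 and 9 (*Tgfbr2*ΔEC – PLX) came next with 9.28% and 9.74%. This choroid was a description of 1 library, for which no test was made.

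**Figure D5:**
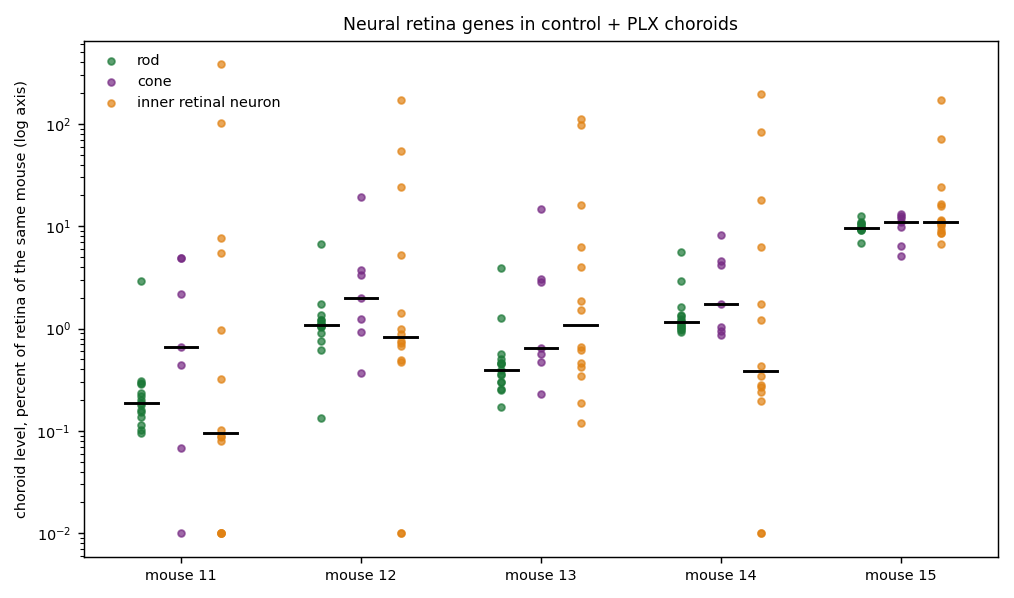
Level of rod (green), cone (purple) and inner retinal neuron (orange) genes in each control + PLX choroid as a percentage of the retina of the same mouse (vertical axis, logarithmic). Each point is a gene and black bars are list medians, and values under 0.01% are drawn at 0.01%. The medians of mouse 15 are 9.67% to 11%, and those of the other mice lie between 0.0965% and 1.98%.

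*Gad1*, the GABA-forming enzyme of amacrine and horizontal cells, measured 721 in the choroid of mouse 15 and 5.32 to 33 in the others. This was 8.58% of the level in retina in mouse 15 and 0.0793% to 0.476% in the other mice.

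Several other summed levels of the same choroid were also the lowest or highest of 5. This choroid was the lowest of 5 for 19 of the 28 pan-leukocyte and phagocyte core genes, beside 0 to 6 for each other choroid. Of the 172 immune genes tested it was the lowest for 67, beside 12 to 36. Its summed pan-leukocyte level was 4997 beside 6814 to 9342, and its core level 18901 beside 22436 to 31253. Its erythroid genes, the globins and *Alas2*, summed to 5425 beside 1210 to 1685. Without mouse 15, the number of genes higher in choroid was 6730 and in retina 5902, and 150 of 172 immune genes were higher in choroid. The differences of *Csf1r*, *Ptprc* and *Tyrobp* were past the threshold with and without it. The part of neural RNA in the lower immune levels of this library was not tested.

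The level of choroidal genes in retina differed by list. Retinas held a median of 0.0527% to 0.0793% of the fibroblast genes of the choroid of the same mouse and 0.067% to 0.173% of the pigment cell genes. For skeletal muscle the values were 0.0144% to 0.287%, for RPE 0.832% to 3.57%, for Schwann cell genes 2.59% to 4.67% and for erythroid genes 0.917% to 45.2%. The corresponding values were 0.0626% to 0.907% for the phagocyte core, 0.291% to 1.38% for pan-leukocyte genes and 4.44% to 6.84% for endothelial genes, whose cells both tissues hold. What part of the few immune reads in retina came from retinal cells, from blood or from choroid was not tested.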

How the data were processed

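Libraries of polyadenylated RNA, stranded and read from one end, were made from choroid and retina of the same mice. According to the study's methods and the submitters' processing notes, the authors checked reads with FastQC 0.11.5, quantified them with Salmon 1.10.1 against GRCm39, summarised them per gene through tximport and scaled them in DESeq2 1.36.0. The deposited signal per gene is this normalized count, scaled over both tissues together and not whole. What 1 read was worth was read off the spacing of low values, of which 50.0% to 77.8% came out within 0.1 of a whole number of reads in the 40 libraries, so reads were not recovered and depth is approximate. Symbols and positions came from a later GENCODE release of GRCm39, promoters from RefSeq of GRCm38.p6.

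Genes whose mean reached 1 normalized count were tested as log2(normalized count + 1) by limma (version 3.58.1, R 4.3.3), its variance prior following the mean, with mouse as a block for tissue contrasts and 5 mice against 5 for the effect of PLX. The procedure was tested on simulated data. Tables and plots used Python 3.11.15, numpy 2.4.6, pandas 2.3.3, scipy 1.17.1 and matplotlib 3.10.9. For tissue contrasts and the interaction, the p-values rest on how the difference within a mouse varied between mice. Those of the PLX effect rest on the spread between mice. Tissues were paired by the mouse number in the library name. The sex-linked genes *Xist*, *Ddx3y*, *Uty*, *Eif2s3y* and *Kdm5d* gave the same sex in both tissues of each of the 5 mice, while deviations from the tissue means correlated at -0.13, -0.28, 0.20, 0.32 and 0.25 over 12459 genes. The strongest correlation was between the choroid of mouse 12 and the retina of mouse 11 (0.63), the libraries with the skew by exonic length. Members, lists and tests were chosen with earlier results of these data known. Listed genes were named in the text by highest choroidal mean, smallest or largest difference, detection in retina or share kept, and others as examples by choice. Genes were also named by rank, from the 10 leading genes in each direction, the 8 of lowest interaction p and the 5 of highest choroidal mean in each PLX-sensitive list. *Fcrls* was not matched, and a few genes that these rules pick are not reported here. Shares kept were given where the mean without PLX reached 10. Alternatives were pseudocounts of 0.5 and 5, a minimum mean of 10 or none, other scalings, a robust variance, no block and leaving out each mouse. The authors tested each tissue separately, and their covariates of sex and neuronal share were not used here.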

Additional observations from a re-analysis of the deposited data

Results flagged for a closer look

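Single libraries stood apart from the other 4 of their tissue in 8 of 66 groups of 5 examined with Dixon's criterion. For independent values with a normal spread, chance alone meets it in about 1 group in 20. These groups shared libraries and were not on a log scale, so 8 of 66 cannot be set against that rate. In the retina of mouse 11, the summed level of disease-associated phagocyte genes was 20861 (10727 to 12770 in the other retinas) and that of complement genes other than C1q was 2955 (1015 to 1468). This retina was also the one with the skew towards genes with few exonic bases. In the retina of mouse 12, Schwann cell genes summed to 4974 (1064 to 1161) and *Ptprc* measured 6.06 (0 to 0.863). In the choroid of mouse 11, dendritic cell genes summed to 1529 (1100 to 1221). In the choroid of mouse 15, rod genes summed to 147473 (4755 to 20716), cone genes to 2659 (422 to 785) and erythroid genes to 5425 (1210 to 1685). Causes were not tested.

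The difference between tissues differed between the diets for 40 genes by the interaction of tissue and diet (limma, 20 control libraries, adjusted p at or under 0.05). The values that follow are the signed choroid minus retina difference with PLX minus that without, on the log2(normalized count + 1) scale. It was greater with PLX for *Tmem119* (5.88), *Mpeg1* (5.60), *Ctss* (6.61), *Tyrobp* (4.74), *Myo1f* (4.21), *Fcgr3* (4.14), *Cx3cr1* (3.90), *Selplg* (4.05), *C1qc* (4.87), *C3ar1* (3.91), *Lyz2* (3.93), *Laptm5* (4.21), *Cd300c2* (3.29), *C1qb* (4.76), and also for *Hhatl* (1.74), *Itgam* (4.47), *Cd180* (3.01), *Trem2* (3.90), *Clec7a* (4.17), *Apbb1ip* (2.90), *Adgre1* (3.01), *C1qa* (4.02), *Ptprc* (4.06), *Cd74* (4.67), *Csf3r* (3.33), *Kcnk6* (3.35), *Steap4* (2.37). It was smaller with PLX for *Cd209f* (-6.23), *Cd209g* (-5.73), *Vsig4* (-4.76), *Ccl24* (-4.13), *Cd83* (-1.78), *Cdnf* (-2.61), *Cyrib* (-0.98), *Lyve1* (-2.53), *Fcna* (-4.49), *Pik3ap1* (-1.38), *Hcls1* (-1.77), *Ptpro* (-2.13), *Csf2ra* (-0.995). The *Cd209* genes are near copies of each other whose reads may be split.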

How the results depend on the processing

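No called difference turned its direction under the alternatives named for the processing. The shares kept by single genes and lists without each mouse were added after seeing the data. Some genes that were not called did, *Il33* and *Kdr* among them, at -0.04 and -0.03 with equal upper quartiles. The balance of all calls did turn with the scaling, from 7344 higher in choroid against 6714 in retina as reported to 6958 against 7440 with equal totals and 6855 against 7664 with equal upper quartiles, while scaling by housekeeping genes gave 7624 against 6028 and moved the median of all genes from -0.02 to 0.07. The number of genes with a smaller signed tissue difference with PLX was the least stable count. It was 13 as reported, 26 with a pseudocount of 5, 33 without the replicate block for mouse, and 3 to 15 when each mouse in turn was left out. The cause was not tested. Other counts over all genes stayed within 1.5 times of those reported. The immune genes higher in retina, 5 as reported, numbered 2 to 5. Genes with a greater difference with PLX numbered 20 to 28 without each mouse and 40 without the block, and 18 with a pseudocount of 5. In control + PLX mice, genes higher in choroid numbered 6499 to 7402 without each mouse and 7707 without the pairing by mouse, and genes higher in retina 5654 to 6851 and 7307. Of the calls for single genes, the block changed 6 of 346. Leaving out mouse 14 changed most, with 11 of 346 no longer called and 1 newly called. The immune genes higher in choroid numbered 148 to 156 in all alternatives but that with a minimum mean of 10, in which 135 of 146 were. The median share of the phagocyte core kept was 24.3% to 28.4% in choroid and 0.663% to 0.926% in retina. With 5 pairs an exact test cannot pass 0.05, and genes at a few reads per retina are known only to within their counting error.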

Other observations

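The RPE and its pigment were carried by choroid at nearly the level without PLX. *Rpe65*, the retinoid isomerase of the visual cycle, measured 42223, 29903, 26236, 43886 and 32931 in the choroids of mice 11 to 15 and 760, 1040, 131, 668 and 726 in the retinas (5.96, adjusted p = 4.9e-06 in limma). The retina of mouse 13 was the lowest of 5 for *Rpe65*, for *Ttr*, the carrier of thyroxine and retinol (507 beside 1785 to 3632), and for *Rgr*, an opsin of the RPE (686 beside 2131 to 3054). *Pmel*, the fibril protein of melanosomes, measured 21669 to 39971 in choroid and 5.96 to 32.8 in retina (11.29). Choroid kept 110%, 102%, 112% and 108% of these 4 genes, and none was called changed with PLX there.

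Vascular genes differed between tissues in their degree. *Plvap*, which forms the diaphragms of fenestrated endothelium, measured 5952 to 9691 in choroid and 147 to 363 in retina (5.24, adjusted p = 1.1e-06), and *Cdh5*, the endothelial cadherin, 2980 to 5487 and 87.1 to 231 (4.94). *Mfsd2a*, a lipid transporter of barrier endothelium, measured 328 to 764 and 62.6 to 164 (2.63), and *Rgs5*, a pericyte gene, 16460 to 23981 and 1341 to 1722 (3.73). These 4 genes are examples from the vascular lists, and the tissues did not overlap for any of them. Of all genes tested, 30.1% were called higher in choroid, and the share of all genes without overlap was not counted.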
